A study of Homo sapiens with 6 samples.

Results

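The RAB small GTPases were taken as the 63 protein-coding genes of the GENCODE v44 annotation whose symbol is RAB followed by a number and, in most, a letter, out of 20046 protein-coding genes. Their mRNAs were described through the IGF2BP3 binding clusters that shared 1 nt or more with their exons on the same strand. A total of 1450 of the 244620 clusters of 5 IGF2BP3 libraries fell on these genes, and 45 of the 63 genes had at least 1 cluster (71.4%, beside 46.7% of all protein-coding genes). The data came from IR-PAR-CLIP, a crosslinking and immunoprecipitation assay with an infrared dye on the adapter, in HCT116, a human colorectal carcinoma line. In this assay RNA is labelled with 4-thiouridine, crosslinked to protein with UV light, trimmed by a ribonuclease and sequenced, and the crosslinked uridine is read as a T-to-C conversion. All 6 libraries came from HCT116 cells of the genotype Tet-OsTIR1-PURO that received 100 µM 4-thiouridine for 15 h and 365 nm light at 0.15 J/cm2. They are cells of 1 line grown in culture, and no sample lacked IGF2BP3. In 5 libraries IGF2BP3 was immunoprecipitated. The paper reports that the antibody also partly recognizes the related protein IGF2BP2, so some of the signal may come from IGF2BP2. The 5 libraries differed in the ribonuclease and in its concentrations in the lysate and on the beads, given here as a pair in U/µL. They were RNase I at 0.05/0.05, 0.1/0.025 and 0.05/0.025, and RNase T1 at 1/1 and 0.25/0.25. The sixth library, also digested with RNase I at 0.1/0.025, was a precipitation with control IgG. Each condition had 1 library, so no difference between conditions has a replicate check and none was tested.

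RAB proteins are membrane-bound molecular switches. A prenylated RAB with GTP sits on 1 kind of membrane, where it recruits effectors that bud, move, tether or fuse vesicles, while GDP-bound RABs are held in the cytosol by GDP dissociation inhibitors. Exchange factors load GTP and GTPase-activating proteins speed its hydrolysis. Different RABs mark different compartments, from the endoplasmic reticulum and Golgi to endosomes, lysosomes and secretory granules. IGF2BP3 is an oncofetal RNA-binding protein that binds mostly in the 3′UTRs of mRNAs.

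The strongest sites of the 12 RAB mRNAs with the highest mean signal are shown first. For each gene, clusters of the 5 libraries were merged into regions, and the region with the highest mean signal among those with a cluster in every library was taken. The 30 bases around the mode location deposited for its strongest RNase T1 1/1 cluster are given. They are written 5′ to 3′ on the RNA strand, with T for U, in GRCh38. The mode location is not always a T, so it is not read here as the crosslinked base. Capitals mark the tetramers CATT, CATA and CAGT, which were searched on the RNA strand only and may overlap.
RAB10, chr2:26135170-26135199 (+): ctgtgactgcttgctgactttatCATAatt
RAB14, chr9:121180572-121180601 (-): cCATTtcacacaaagaaatagacacaactg
RAB7A, chr3:128813590-128813619 (+): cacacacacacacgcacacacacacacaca
RAB5C, chr17:42125382-42125411 (-): ctgcggaacagcggacccagcaagagcatc
RAB8A, chr19:16133494-16133523 (+): CATTggcatcatcgtttcttttgaattaaa
RAB11A, chr15:65888018-65888047 (+): tgcagctttttttcatgctatggcttcact
RAB3B, chr1:51912672-51912701 (-): tgttttctgccctagagagctaccacagag
RAB4A, chr1:229304636-229304665 (+): gctagaaaacaCATTgtactgtgctttttc
RAB6A, chr11:73677731-73677760 (-): ctcgtggagatgatctattagcttcacaag
RAB1A, chr2:65088363-65088392 (-): cagattcttaccgtctccacaaaggtcaga
RAB21, chr12:71786485-71786514 (+): ctgtctactactttgatataatctgtatac
RAB18, chr10:27539421-27539450 (+): ttctgaaatgtacatctttaCATAtaaaaa
All 12 windows lay in the 3′UTR of the gene's canonical transcript. The central base was under a cluster in all 5 libraries for 9 of them, in 4 libraries for RAB6A, in 3 for RAB4A and in 2 for RAB3B. The RAB7A window is a run of CA repeats broken by 1 G, and it holds no T. Among the 21 RAB genes with such a region, 8 windows held at least 1 of the 3 tetramers, beside 44.5% of the 49035 windows placed in the same way on all RNase T1 1/1 clusters of protein-coding exons. CATT was in 5 of the 21 windows and in 23.5% of all windows, CATA in 3 and 13.8%, and CAGT in 1 and 13.5%. These shares describe 30-base windows, and a match is no measurement of binding.

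The 5 IGF2BP3 libraries held 182448 to 2362467 cluster reads in 13568 to 90999 clusters, and the IgG library held 324 reads in 25 clusters. None of the IgG clusters lay on a RAB gene, so that 0 RAB genes were called there, beside 0.0299% of all protein-coding genes. Levels are given as counts per 1000000 cluster reads of the library (CPM), so that 10 CPM was 23.6, 8.03, 6.71, 11.6 and 1.82 reads in the order of the libraries above, which is kept throughout. All 6 epithelial marker genes had clusters and none of the 6 markers of leukocytes, fibroblasts and endothelium had one. RNase I 0.05/0.05 and RNase T1 1/1 were eluted from the gel electrically, and the other 3 IGF2BP3 libraries from crushed gel. For RNase T1, and between RNase I 0.05/0.05 and the other RNase I libraries, the mode of elution and the RNase concentration therefore cannot be told apart. RNase I 0.1/0.025 and 0.05/0.025 shared the elution. The abundance of the mRNAs was not measured in these libraries, so a level is the yield of crosslinked reads and not the share of mRNA molecules bound.

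The share of RAB mRNAs called as targets was above that of protein-coding genes in general. The call for a gene in a library required a single cluster with both more than 10 CPM and more than 0.5 T-to-C conversions per read. RNase I 0.05/0.05 gave 33 RAB targets, or 52.4% of 63, where 21.9% of all protein-coding genes were called. RNase I 0.1/0.025 gave 28 (44.4%) beside 21.3% of all genes. RNase I 0.05/0.025 gave 32 (50.8%) beside 22.0% of all genes. RNase T1 1/1 gave 27 (42.9%) beside 19.6%, and RNase T1 0.25/0.25 gave 24 (38.1%) beside 13.7%. In that last library 2 reads are already 11.0 CPM, so the CPM criterion passed any cluster of 2 or more reads. All 24 RAB genes with a cluster there were called, beside 2737 of 3339 protein-coding genes with a cluster. How abundant each mRNA was is not known here, and its part in these shares was not tested. In all 5 libraries together 22 RAB genes were called (34.9%, beside 9.91% of all genes), and in at least 1 library 34 were called (54.0%, beside 29.5%). The call rests on the conversion threshold: above 0.75 conversions per read, 1 RAB gene passed in all 5 libraries, beside 1.16% of all genes. Above 0.25 conversions per read, 24 passed, beside 13.3% of all genes.

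**Figure D1:**
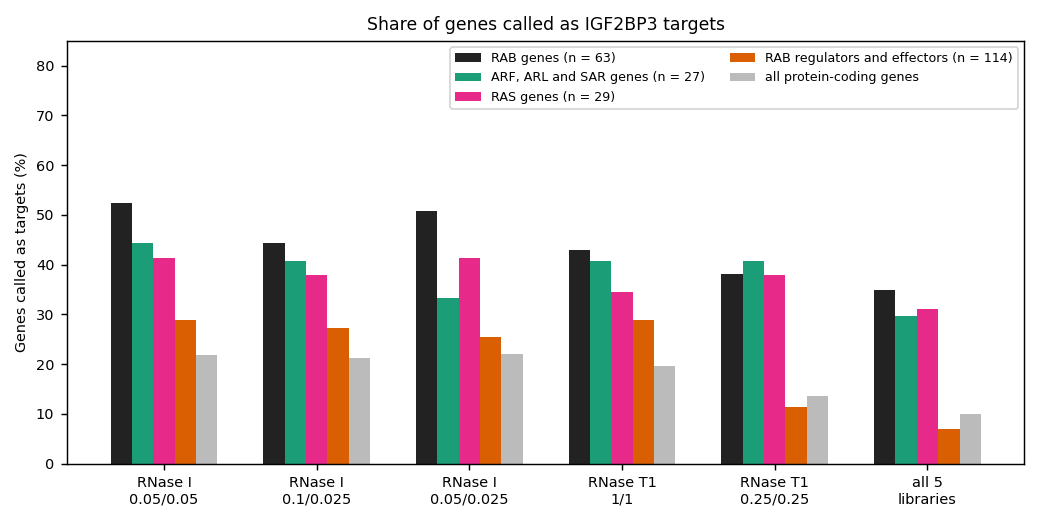
Percent of genes called as targets (y axis, from 0) in each IGF2BP3 library and in all 5 (x axis), for the 63 RAB genes, 2 other groups of small GTPase genes, the regulators and effectors of RABs, and all protein-coding genes. The black RAB bars run from 38.1% to 52.4% in single libraries and stand above the grey bars of all genes, which run from 13.7% to 22.0%.

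The RAB genes took a small and similar share of each library. Their clusters held 0.751% of the cluster reads with RNase I 0.05/0.05 (95% Wilson interval 0.740 to 0.762), 0.779% with RNase I 0.1/0.025 (0.760 to 0.799) and 0.738% with RNase I 0.05/0.025 (0.718 to 0.759). The share was 0.854% with RNase T1 1/1 (0.837 to 0.870) and 0.966% with RNase T1 0.25/0.25 (0.922 to 1.01). The intervals of both RNase T1 libraries lay above those of the 3 RNase I libraries. Intervals here and below cover counting error only, and not the spread between experiments.

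Within the family the signal was uneven. The 12 genes with the highest mean CPM held 74.8% of the family's signal, and RAB10 alone held 11.7%. Per kilobase of canonical mRNA, the median RAB gene with a cluster had a mean level of 26.2 CPM/kb, beside 5.77 CPM/kb over all protein-coding genes with a cluster. The order of the genes depended on length. RAB5C ranked first per kilobase at 295 CPM/kb, followed by RAB10 at 269 CPM/kb and RAB7A at 252 CPM/kb. RAB21 and RAB3B, whose canonical 3′UTRs are 14613 and 11971 nt long, had 26.4 and 34.8 CPM/kb.

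**Figure D2:**
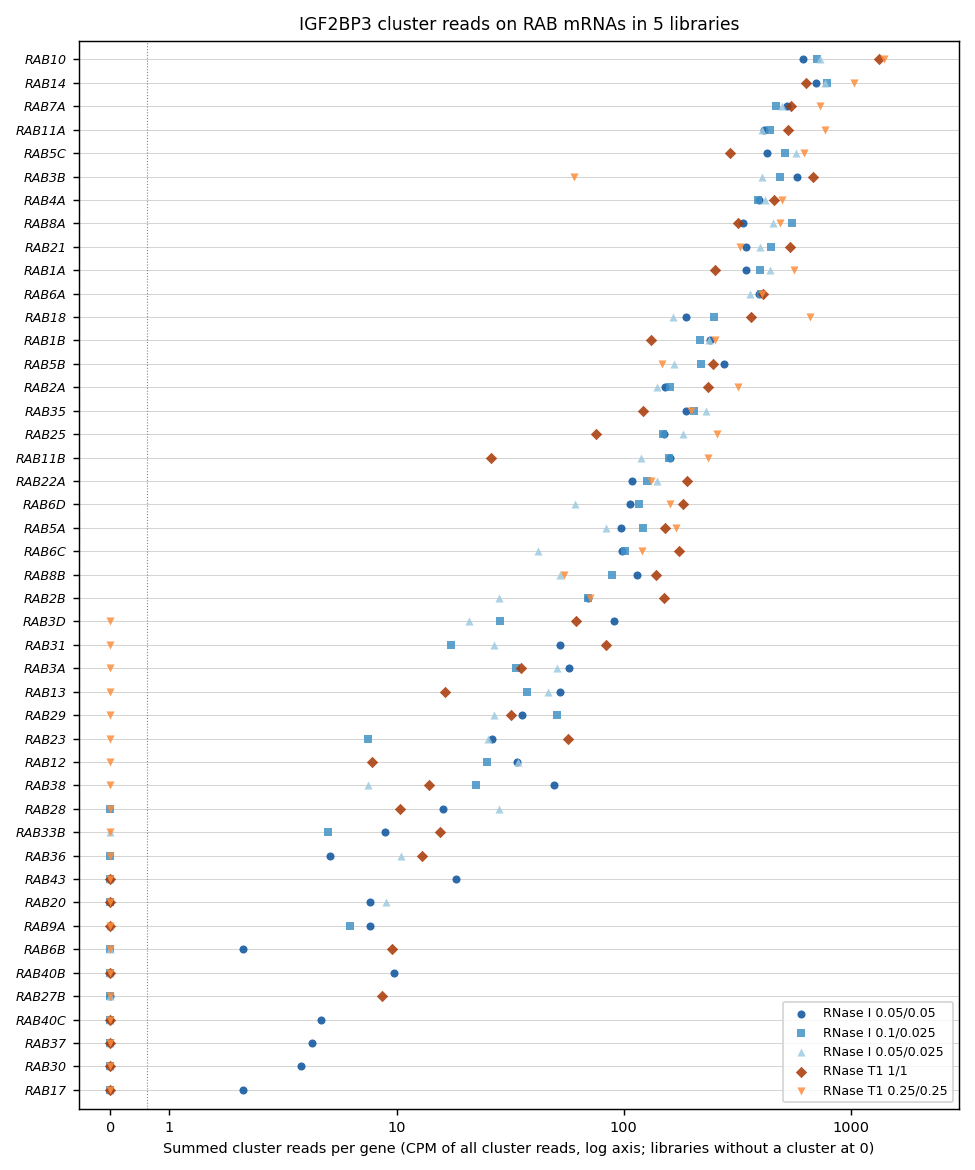
Summed cluster reads of each of the 45 RAB genes with a cluster (y axis, ordered by mean) in CPM on a log axis, 1 point per IGF2BP3 library, with libraries without a cluster placed at 0. The 24 genes at the top have points in all 5 libraries, and RAB3B has 1 point (RNase T1 0.25/0.25, 60.3 CPM) far to the left of its other 4.

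RABs of recycling and of exocytosis from recycling endosomes or the Golgi held the largest part of the signal. This group had 13 genes, of which 11 were targets in at least 1 library, and together they held 45.8% of the family's mean CPM. For this and the following groups, the shares called in at least 1 library were 54.0% of all RAB genes and 29.5% of all protein-coding genes. RAB10, which drives delivery of GLUT4 and other cargo to the plasma membrane, had 617, 707, 728, 1328 and 1403 CPM in the 5 libraries. Both RNase T1 libraries were above all 3 RNase I libraries for this gene. RAB14, which acts between the Golgi and endosomes, had 699, 783, 772, 631 and 1030 CPM, and the 2 enzymes overlapped. RAB11A, the defining GTPase of recycling endosomes, had 415, 442, 404, 530 and 767 CPM. For this gene too both RNase T1 values were the highest. RAB4A, which returns cargo rapidly from early endosomes, had 392, 390, 420, 456 and 499 CPM, a narrow range. RAB8A, which directs polarized exocytosis and builds cilia, had 335, 548, 453, 317 and 488 CPM, with both electroeluted libraries lowest. RAB35 (121 to 231 CPM), RAB25 (75.2 to 258 CPM), RAB11B (25.9 to 236 CPM) and RAB8B (52.2 to 138 CPM) also had clusters in all 5 libraries. RAB25 is the epithelial member of the RAB11 subfamily. RAB13, of tight junctions, and RAB12, of recycling to degradation, had at most 52.5 and 34.3 CPM and no cluster with RNase T1 0.25/0.25. RAB15 and RAB4B had no cluster.

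RABs of the endoplasmic reticulum and Golgi formed the second group, with 16 genes, 8 targets and 21.3% of the signal. RAB1A and RAB1B drive traffic from the endoplasmic reticulum to the Golgi. RAB1A had 344, 398, 441, 253 and 559 CPM and RAB1B had 240, 217, 237, 132 and 252 CPM. In both genes RNase T1 1/1 was lowest and RNase T1 0.25/0.25 highest. RAB6A, of retrograde and intra-Golgi traffic, varied least among the 12 genes of highest mean CPM, with 393, 401, 358, 408 and 406 CPM. RAB18, which is found on the endoplasmic reticulum and lipid droplets, had 188, 250, 166, 365 and 663 CPM, and the values of both RNase T1 libraries lay above the rest. RAB2A (140 to 318 CPM) and RAB2B (28.3 to 150 CPM), which act in Golgi traffic and in fusion with lysosomes, were targets in all 5 libraries. RAB6C was also a target in all 5, but its reads cannot be separated from those of RAB6A, as described below. RAB36 was a target in 1 library, and RAB33B, RAB43, RAB6B and RAB30 had clusters but no target call.

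The early endosome group of 9 genes had 6 targets and 17.2% of the signal. RAB5A, RAB5B and RAB5C, which control homotypic fusion of early endosomes, were all targets in all 5 libraries. RAB5C had 426, 510, 571, 295 and 619 CPM, the lowest of them with RNase T1 1/1. RAB5B had 275, 218, 167, 248 and 148 CPM. RAB5A had 96.9, 122, 83.5, 151 and 170 CPM, and was below RAB5C in every library. RAB21, which binds integrins on endosomes, had 346, 446, 400, 537 and 323 CPM. RAB22A, of tubular recycling, had 109 to 190 CPM, and RAB31, its close relative, had 17.4 to 83.8 CPM in 4 libraries and no cluster with RNase T1 0.25/0.25. RAB20 and RAB17 had clusters without a target call.

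Late endosomal, secretory and other RABs each had 1 gene called in all 5 libraries. RAB7A, the main GTPase of late endosomes and lysosomes, had 523, 468, 495, 544 and 729 CPM and carried nearly all of the 7.36% of signal in its group of 7. RAB29, a trans-Golgi and lysosomal RAB that recruits LRRK2, and RAB38, of melanosomes, were its other targets, with at most 51.0 and 49.5 CPM. Of the 8 genes of regulated secretion, RAB3B had 581, 489, 407, 684 and 60.3 CPM. Its clusters numbered 60, 39, 30, 49 and 2. RAB3D and RAB3A, also on secretory vesicles, had at most 91.0 and 57.1 CPM and no cluster with RNase T1 0.25/0.25. The remaining group of 10, with unsettled or other roles, held 1.98% of the signal. Its targets were RAB23, of ciliary hedgehog signalling, RAB28, of the retina and cilia, and RAB6D, which was in none of the role lists and was put here.

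A set of 18 RAB genes had no cluster on an exon in any IGF2BP3 library: RAB3C, RAB4B, RAB7B, RAB9B, RAB15, RAB19, RAB24, RAB26, RAB27A, RAB32, RAB33A, RAB34, RAB39A, RAB39B, RAB40A, RAB41, RAB42 and RAB44. A further 11 genes had clusters but were never called: RAB33B, RAB43, RAB20, RAB9A, RAB6B, RAB40B, RAB27B, RAB40C, RAB37, RAB30 and RAB17. Their mean level was at most 5.88 CPM. Fewer transcripts and less binding per transcript cannot be told apart for any of these 29 genes.

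Binding on RAB mRNAs lay in the 3′UTR. Where a cluster that touched a 3′UTR was counted there, 97.8%, 99.0%, 99.4%, 98.8% and 99.7% of RAB cluster reads were in 3′UTRs, beside 81.3%, 83.0%, 81.6%, 87.9% and 88.0% over all protein-coding genes. Where the coding sequence was given first claim, the RAB shares were 79.0%, 90.8%, 95.4%, 98.2% and 98.8%, beside 68.5%, 74.3%, 71.8%, 85.5% and 84.2%. RAB transcripts are short in their coding part: the 45 genes with clusters had a median canonical coding sequence of 648 nt and 3′UTR of 2260 nt, beside 1392 and 1593 nt for all genes with a cluster. Taken by length, clusters covered 27.3% of RAB 3′UTR bases and 7.60% of RAB coding bases with RNase I 0.05/0.05, beside 20.7% and 8.47% over all genes with a cluster. With RNase T1 1/1 they covered 11.4% and 1.06%, beside 7.77% and 1.76%.

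The signal gathered in a limited number of regions. Merging the 1450 clusters gave 398 regions. Of these, 42 had a cluster in all 5 libraries and held 76.4% of the mean CPM, while 174 had clusters in 1 library and held 1.89%. The strongest region was RAB10 chr2:26134995-26135911, 917 nt that span the stop codon, with 325, 380, 426, 798 and 1052 CPM. In RAB14, chr9:121180097-121181408 had 480, 524, 544, 416 and 740 CPM. In RAB7A, chr3:128813438-128814099 had 390, 350, 374, 377 and 729 CPM, and the CA repeats printed above lie in it. In RAB5C, chr17:42125093-42125817 had 379, 438, 486, 282 and 554 CPM, and it runs from the end of the coding sequence into a 3′UTR of 804 nt. In RAB25, chr1:156070276-156070488 reached nucleotide 201 of a 3′UTR of 217 nt, with 139, 148, 182, 71.7 and 258 CPM.

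Position within the 3′UTR differed among the genes. Over all RAB genes, the first part of 3 equal parts of the canonical 3′UTR held 54.1%, 56.6%, 53.8%, 54.2% and 64.3% of the 3′UTR signal, and the last part held no more than 18.8%. RAB21 was the most uneven of the strongly bound genes, since 97.6% to 100% of its signal lay in the first part of its 14613 nt, and 1 of its 101 clusters there, with 8 reads, lay beyond 5182 nt. RAB14 had no cluster beyond 2073 of 3263 nt in any library, and RAB18 none beyond 1825 of 4188 nt. RAB3B was the opposite case, with clusters from nucleotide 12 to nucleotide 11930 of 11971 and no more than 10.8% of its signal in 1 cluster in the 4 libraries with 30 or more clusters. Which 3′ ends are used in these cells was not measured, and its part in these positions was not tested.

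RNase I 0.05/0.05 covered RAB 3′UTRs more broadly than RNase T1 1/1. The median share of the canonical 3′UTR under clusters was 39.6% and 10.7% over the 36 genes with 3′UTR clusters in both. RNase I coverage was the larger in 35 of 36 genes, beside 94.7% of all protein-coding genes, a share near that of the family. The exception was RAB6B, with 5 and 11 reads. RNase I 0.05/0.05 also had more cluster reads. With its reads thinned to the depth of RNase T1 1/1, it was broader in 35 of 35 genes, beside 94.6% of all genes. Clusters kept their full length in this thinning unless they lost all reads, so the part of depth in the coverage was not tested. RNase I 0.1/0.025, with fewer cluster reads than RNase T1 1/1, was broader in 26 of 33 genes, beside 69.3%. RNase I 0.05/0.025 was broader in 22 of 34 genes (64.7%, Wilson interval 47.9 to 78.5%), beside 59.9% of all genes. RAB clusters had a median length of 64, 57 and 59 nt in the RNase I libraries and 36.5 and 38 nt in the RNase T1 libraries. The last base was G in 94.3% and 95.2% of RAB clusters after RNase T1, which cuts after G, and in 6.62% to 11.8% after RNase I, which has little base preference. Of the 384 RAB clusters of RNase T1 1/1, 86.5% overlapped an RNase I 0.05/0.05 cluster, beside 76.9% over protein-coding genes, and 17.7% did so over at least 50% of both clusters.

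**Figure D3:**
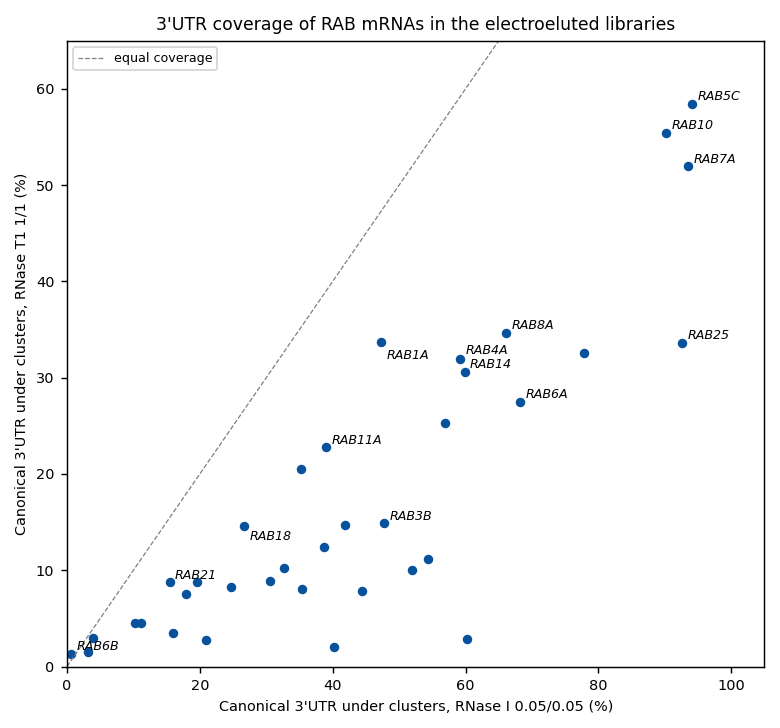
Percent of the canonical 3′UTR under clusters with RNase I 0.05/0.05 (x axis) and RNase T1 1/1 (y axis), 1 point for each of 36 RAB genes, with the genes of highest CPM named and a dashed line for equal coverage. All points but RAB6B lie under the line.

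The 2 electroeluted libraries weighted single RAB genes differently. Over the 36 genes with clusters in both, the median log2 ratio of RNase T1 1/1 to RNase I 0.05/0.05 was 0.14, beside 0.05 over 7106 protein-coding genes. The exact conditional binomial interval of the ratio was above 1 in 16 of the 36 genes, beside 32.2% of the 7106 genes, and below 1 in 12, beside 30.5%. The ratio itself was above 1 in 55.6% of the RAB genes and in 52.3% of all genes. RAB6B had the highest ratio, 4.49 (95% interval 1.44 to 16.5), on few reads. RAB10 was 2.15 times higher with RNase T1 1/1 (2.00 to 2.31) and RAB18 1.94 times (1.69 to 2.22). The lowest ratios were those of RAB11B at 0.163 (0.108 to 0.236), RAB12 at 0.230 (0.101 to 0.458), RAB38 at 0.279 (0.154 to 0.473) and RAB13 at 0.313 (0.182 to 0.509). RAB11B had 159 CPM with RNase I 0.05/0.05 and 25.9 CPM with RNase T1 1/1, but 236 CPM with RNase T1 0.25/0.25, its highest value. The ratio moved with base composition: its Spearman correlation with the G content of the canonical 3′UTR was -0.33 over the 36 RAB genes and -0.41 over 6959 protein-coding genes, all from the same 2 libraries. With the GC content the correlations were -0.37 and -0.43, so G was not singled out. The 3′UTR of RAB11B had 25.9% G, that of RAB10 16.5% and that of RAB12 17.0%. The part of base composition in the ratio was not tested.

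A set of 6 RAB genes was called with RNase I 0.05/0.05 and not with RNase T1 1/1, or 9.52% of 63, beside 6.04% of all protein-coding genes. The reverse occurred in 0 RAB genes, beside 3.79% of all genes. RAB25, RAB38, RAB11B, RAB3A and RAB23 had RNase T1 1/1 clusters above 10 CPM that did not meet the conversion threshold. RAB25 for example had 139 CPM and 0.613 conversions per read in its called RNase I cluster, and 71.7 CPM and 0.398 conversions per read in its top RNase T1 1/1 cluster. RAB12 had no RNase T1 1/1 cluster above 10 CPM. RAB23 was 2.17 times higher with RNase T1 1/1 (57.0 against 26.2 CPM), and its top cluster there had exactly 0.5 conversions per read, just at the threshold. Conversions per read were lower over all RAB clusters after RNase T1, at 0.489 and 0.528, than after RNase I, at 0.635, 0.630 and 0.595. Over all protein-coding genes the values were 0.512 and 0.552 after RNase T1, and 0.638, 0.651 and 0.608 after RNase I. With the threshold at 0.25 conversions per read, 2 RAB genes were left as RNase I 0.05/0.05 only, beside 3.42% of all genes.

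The tetramers of RAB clusters were close to those of other clusters. CAUU was in 47.1%, 41.5%, 44.3%, 37.8% and 42.1% of RAB clusters, beside 35.2% to 41.6% of clusters on all protein-coding exons. The RNase I 0.05/0.05 value had a Wilson interval of 42.4 to 51.9%, above the 39.5% of all clusters in that library. RAB clusters there were also longer, with a median of 64 nt beside 57 nt for all clusters on protein-coding exons. The intervals of the other 4 libraries included the value of all clusters. CAGU was in 33.4% to 39.2% of RAB clusters after RNase I and in 14.6% and 22.2% after RNase T1. Over all clusters the shares were 34.2% to 35.2% after RNase I and 11.8% and 18.7% after RNase T1. CAUA was in 18.5% to 25.5% of RAB clusters and 20.8% to 24.4% of all. Clusters differ in length between the enzymes and several clusters share a gene, so these shares are a description.

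Some paralogous RABs were called alike and others differed widely in level. Genes with the same number and another letter formed 28 pairs, in 9 of which both genes were targets in all 5 libraries, in 7 neither was a target in any, and in 6 one was a target in all 5 and the other in none. Of the 63 single genes, 22 were targets in all 5 libraries and 29 in none. The pairs were not compared with pairs of unrelated RABs. A gene can be in several pairs, so the pairs are not independent. Without RAB6C and RAB6D, whose reads cannot be separated from those of RAB6A, these counts were 6, 7 and 4 of 23 pairs. Of the 17 pairs with clusters on both genes, 5 differed by more than 10-fold in mean CPM, and 3 of 12 did so without RAB6C and RAB6D. RAB7A had 468 to 729 CPM while RAB7B, whose coding sequence has 66.4% of aligned bases identical, had no cluster. RAB3B had 60.3 to 684 CPM and RAB3C, with 75.2% identity, no cluster. The summed CPM of RAB3A was 0.0983 times that of RAB3B with RNase I 0.05/0.05 (95% interval 0.0818 to 0.117). Per kilobase of mRNA the levels of these genes lay nearer together, with 38.2 CPM/kb for RAB3A and 45.5 CPM/kb for RAB3B in that library. RAB3A was the higher with RNase I 0.05/0.025 (33.9 against 31.8 CPM/kb). It was the lower with RNase I 0.1/0.025 (22.5 against 38.3 CPM/kb) and with RNase T1 1/1 (23.7 against 53.5 CPM/kb). With RNase T1 0.25/0.25 RAB3A had no cluster and RAB3B had 4.72 CPM/kb. RAB4A had 390 to 499 CPM and RAB4B, with 73.8% identity, no cluster. RAB6A was 186 times RAB6B with RNase I 0.05/0.05 (95% interval 79.3 to 574), and their coding sequences are 78.6% identical. RAB1A was above RAB1B, RAB2A above RAB2B, RAB8A above RAB8B and RAB11A above RAB11B in summed CPM in all 5 libraries. Per kilobase the first 3 of these orders held in all 5 libraries, while RAB11B was above RAB11A with RNase I 0.05/0.05 (100.1 against 84.8 CPM/kb) and with RNase I 0.1/0.025 (99.4 against 90.3 CPM/kb). For RAB2A and RAB2B the smallest ratio was 1.56, with RNase T1 1/1. Ratios between genes compare summed signal and were not divided by length.

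**Figure D4:**
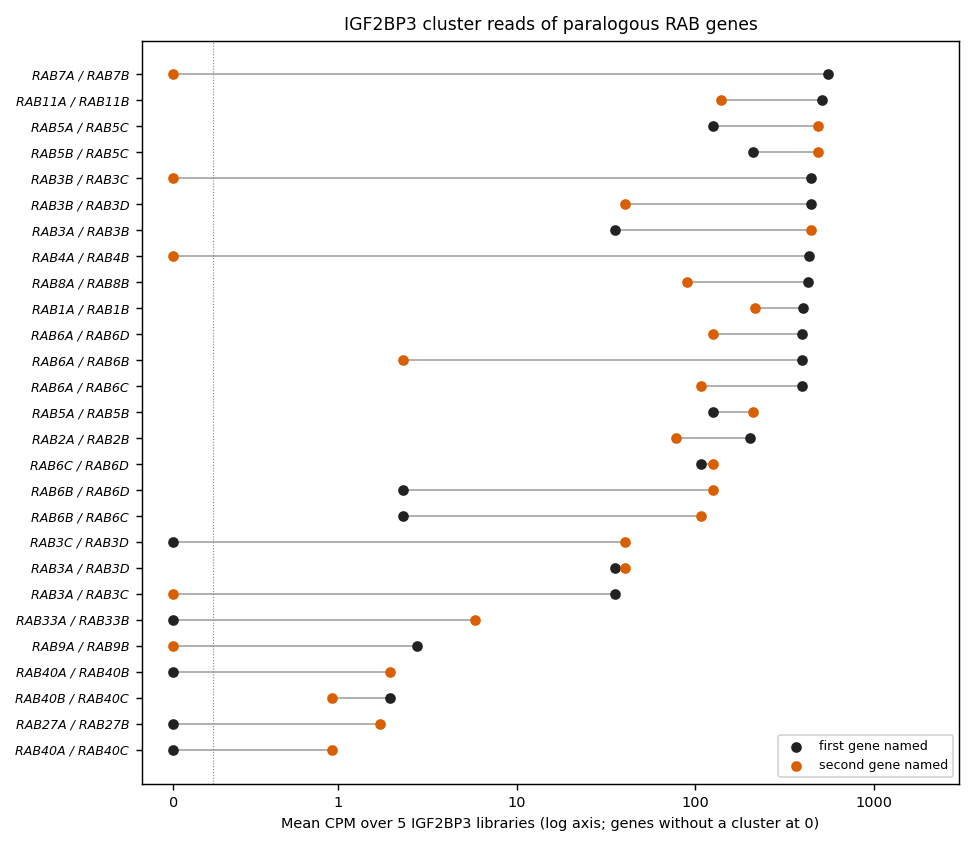
Mean CPM over the 5 IGF2BP3 libraries (x axis, log, genes without a cluster at 0) of both genes of each of the 27 paralog pairs with a cluster on at least 1 gene (y axis), joined by a line. RAB7A, RAB3B and RAB4A stand opposite partners at 0, and RAB6C and RAB6D lie side by side.

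RAB6A, RAB6C and RAB6D must be read together. RAB6C and RAB6D are near-copies of a RAB6A transcript on chromosome 2, and their coding sequences are 99.5% identical to each other, 91.7% and 91.9% to RAB6A. All 27 clusters of RAB6C and all 25 of RAB6D had a copy with at most 3 differences elsewhere in the genome, and bowtie was run with up to 3 mismatches. Of their reads, 94.7% each were in clusters with such a copy in RAB6A. The strongest RNase T1 1/1 site of RAB6C and its matches in the other 2 genes are shown because they differ in 1 base, which is the capital in the lower lines.
RAB6C, chr2:129980927-129980956 (+): atattttacaaaaagccaaattatttcagc
RAB6D, chr2:131362880-131362909 (-): atattttacaaaaagccaaaCtatttcagc
RAB6A, chr11:73677672-73677701 (-): atattttacaaaaagccaaaAtatttcagc
Counted from the 5′ end of the window, RAB6D carries T21C and RAB6A T21A relative to RAB6C. Reads are given for whole clusters that share 1 nt or more with this window, so they are not counts at the base that differs. Such clusters held 22, 10 and 516 reads at RAB6C, RAB6D and RAB6A with RNase I 0.05/0.05, and 12, 12 and 188 with RNase I 0.1/0.025. The RAB6A cluster of 516 reads reached from nucleotide 1 to 274 of the 3′UTR. The RNase T1 1/1 clusters held 113 reads at RAB6C and 113 at RAB6D, and 131 at RAB6A. That RAB6A cluster, chr11:73677687-73677748, covers part of the window and not the base that differs. With RNase T1 0.25/0.25, RAB6C and RAB6D held 22 reads each there and RAB6A 29. The crosslinking conversion itself is T to C, so that the RAB6D base is also the base a converted read of RAB6C would show. How reads with several equal matches were assigned is not given in the sources used here. RAB6C and RAB6D had 41.7 to 182 CPM in single libraries and both counted among the 22 genes called in all 5, so 20 of 61 remained without them. Leaving out every RAB cluster with a copy of at most 3 differences, an alternative chosen after seeing the data, left 17 of the 22, the lost genes being RAB6A, RAB6C, RAB6D, RAB5A and RAB5B. Outside RAB6A, RAB6C and RAB6D, 177 of 1342 clusters had a copy with at most 3 differences. An exact copy was found for 30 of the 1342, among them all 5 clusters of RAB43. Clusters with a copy of at most 3 differences held 50.5% of the reads of RAB13, 19.6% of RAB1A, 17.5% of RAB5A and 0% of RAB7A. A second source of doubt is shared exons: 22 RAB clusters also overlapped exons of another gene, mostly of RAB5C, RAB13 and RAB43.

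The regulators and effectors of RABs had lower shares of calls than the RABs themselves. A list of 114 exchange factors, GTPase-activating proteins, effectors and prenylation or GDI proteins gave 33, 31, 29, 33 and 13 targets, or 28.9%, 27.2%, 25.4%, 28.9% and 11.4%. Of all protein-coding genes, 21.9%, 21.3%, 22.0%, 19.6% and 13.7% were called. The list was thus below all genes only with RNase T1 0.25/0.25. In at least 1 library 46 were called (40.4%, beside 29.5% of all genes). In all 5 libraries 8 were called, or 7.02%, beside 9.91% of all genes. These were RGP1 and RIC1, which together load RAB6, and DENND5B, another exchange factor. The others were USP6NL and TBC1D14, both placed in the list of GTPase-activating proteins, the RAB5 effectors RABEP1 and RBSN, and the RAB6 effector BICD2. RGP1 was the strongest of the 8, with 367, 266, 276, 477 and 291 CPM. By class, 12, 10, 9, 10 and 4 of 39 GTPase-activating proteins, 10, 9, 10, 9 and 4 of 34 exchange factors, 9, 9, 8, 10 and 5 of 35 effectors and 2, 3, 2, 4 and 0 of 6 prenylation or GDI genes were called. The shares of other small GTPase families lay nearer to that of the RABs. The counts of targets were 12, 11, 9, 11 and 11 of 27 ARF, ARL and SAR genes and 12, 11, 12, 10 and 11 of 29 RAS genes. In all 5 libraries 8 and 9 of these were called, or 29.6% and 31.0%, beside 34.9% of RAB genes. These lists were not tested against each other.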

How the data were processed

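IGF2BP3 and control IgG IR-PAR-CLIP clusters of HCT116 cells were used as deposited. The authors' processing notes and methods name bcl2fastq 2.20.0.422, UMI-tools 1.1.1, Trimmomatic 0.30, bowtie 0.12.7 on GRCh38 and PARalyzer, run per library. The deposited columns used are the coordinates, sequence and mode location of each cluster and its counts of reads, conversion events and non-conversion events. All 244645 cluster sequences were identical to GRCh38 at their coordinates. RAB genes and all lists were chosen with earlier results of these data known. The rule for genes given in full named the 12 with the highest mean CPM, up to 3 in each direction called in only 1 electroeluted library, the 3 paralog pairs with the largest CPM difference within a library, and any with IgG clusters. Other genes, RAB1B, RAB5A and RAB5B among them, were given in full or named after their values were seen.

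Clusters were assigned to GENCODE v44 exons with bedtools 2.31.1. CPM is cluster reads over the total cluster reads of the library. Targets had a cluster above 10 CPM with more than 0.5 conversion events per read. Canonical transcripts gave lengths and 3′UTRs. Copies were sought with blastn 2.17.0. Intervals are Wilson or exact conditional binomial intervals. There was 1 library per condition, so no p-value was computed. Functions were checked on simulated data. Alternatives changed the thresholds, the assignment to exons, the denominator, the depth and the libraries used. Some genes and lists are not reported here.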

Additional observations from a re-analysis of the deposited data

How the results depend on the processing

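No paired analysis was possible because each condition had 1 library. Of 131 values under other settings, 85 kept within 1.5 times (counts) or the counting interval (shares), and 46 moved. RAB targets in all 5 libraries, 22 as reported, ranged from 15 to 24 under 10 alternatives, among them 5 and 20 CPM, thinning to the smallest library and leaving out RNase T1 0.25/0.25. They fell to 8 when at least 20 reads replaced the CPM criterion, to 1 above 0.75 conversions per read, and to 0 when over 0.5 of all conversion and non-conversion events had to be conversions. The shares of all protein-coding genes fell too, from 9.91% to 2.23%, 1.16% and 0%. Under the last of these settings the RAB targets in each library, the medians of regulators and of the other families, and the RAB genes called with RNase I 0.05/0.05 and not RNase T1 1/1 were also 0. At most 0.00998% of all genes were called in a library under it, so it does not describe the RABs in particular. With at least 20 reads, RNase I 0.05/0.025 gave 19 RAB targets (10.5% of all genes) and RNase T1 0.25/0.25 gave 10 (2.52% of all genes). Above 0.75 conversions per read the 5 libraries gave 10, 16, 14, 10 and 14 RAB targets, beside 6.73%, 12.2%, 11.5%, 7.31% and 7.89% of all genes. At that threshold the median of regulators was 8 and of the other families 13 (22 as reported), and 6 RAB genes were called with RNase T1 1/1 and not RNase I 0.05/0.05 (4.63% of all genes). That count was 2 above 5 CPM (5.04%), 4 above 20 CPM (2.25%) and 1 after thinning (4.12%), and the reverse count was 2 above 0.25 conversions per read (3.42%). The median of regulators called over the libraries, 31, was 49 above 5 CPM, 13 above 20 CPM and 7 with at least 20 reads. Pooled over the libraries, RAB genes had 7842 CPM. This was 7552 with clusters on exons of 1 gene only, 9297 relative to reads on protein-coding exons, 7010 without RAB10 and 7024 without clusters with a copy elsewhere, the last chosen after seeing the data. The pooled 3′UTR share, 98.5%, was 88.4% with the coding sequence first and 96.1% with each cluster counted once. Broader RNase I coverage, 97.2% of genes, was 100% after thinning, which kept the length of every remaining cluster, and 78.8% with RNase I 0.1/0.025. Regions in all 5 libraries, 10.6%, were 19.7% with clusters above 10 CPM, and overlap of RNase T1 1/1 with RNase I 0.05/0.05 clusters fell from 86.5% to 17.7% when 50% of both was required. With clusters extended by 10 nt and with 1 cluster per gene, the pooled share with CAUU moved from 42.6% to 48.1% and 58.0%. That with CAUA moved from 21.8% to 24.8% and 36.8%, that with CAGU from 29.2% to 36.3% and 37.4%, and that with a run of 4 G from 10% to 12.8% and 20.7%. The causes were not tested. RNase T1 0.25/0.25, with 182448 cluster reads, limits what can be detected: 3 reads there are 16.4 CPM.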

Other observations

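Clusters in RAB introns were few. RNase I 0.05/0.05 had 9 in RAB17, RAB7A and RAB6A and RNase T1 1/1 had 5 in RAB17 and RAB7A, while the other 3 IGF2BP3 libraries had none. RAB17, an epithelial RAB of polarized sorting, had 15.2 CPM in introns and 2.12 CPM on exons with RNase I 0.05/0.05, and 22.5 CPM in introns and no exon cluster with RNase T1 1/1. It was the only RAB gene with more signal in introns than on exons. Among 20 annotated RAB pseudogenes, 1 had a cluster: RAB1AP1, with 36 reads with RNase T1 1/1.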
